A study of Homo sapiens with 3 samples.

Results

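The genes described here are 10 components of the Notch signalling pathway: the receptors NOTCH1, NOTCH2 and NOTCH3, the ligands JAG1 and JAG2, the DNA-binding factor RBPJ, the coactivators MAML1, MAML2 and MAML3, and the target gene HES1. They were read from every probe set that the platform annotation assigns to a single gene symbol and that symbol only, which gave 28 of 41091 such probe sets and 10 of 19775 genes. The group was put together with the response to cisplatin already known, because MAML2 stood lowest, so the differences between cisplatin and untreated cells below are a description and carry no test. RNA came from KYSE140 cells, an established line of human oesophageal squamous carcinoma, grown in RPMI medium with serum. Affymetrix arrays were hybridised with RNA of cells given cisplatin, which crosslinks DNA, for 12 h at a dose labelled 10 mM (2 arrays, titled B1 and B2), and of untreated cells of the same line (1 array). The line is a single tumour-derived model. The millimolar unit is given as labelled and is far above the micromolar range usual in culture, and may be an error. The labels do not state that the cisplatin arrays are from different cultures, and their spread may be technical. In bulk RNA, fewer cells with a transcript and less of it per cell cannot be told apart.

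Notch receptors are membrane proteins that are cut when a Jagged or Delta-like ligand on a neighbouring cell binds them. The released intracellular part enters the nucleus and joins RBPJ on DNA, and a Mastermind-like (MAML) protein binds the pair and recruits acetyltransferases, so that target genes such as HES1 are transcribed. Without the receptor fragment RBPJ sits with corepressors. In squamous epithelium Notch signalling is best known for promoting the exit of basal cells into differentiation.

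The promoters of HES1, RBPJ and MAML2 are shown because these genes gave the clearest differences among the nuclear components and the target. Each line is the 250 bases before an annotated start, from RefSeq on GRCh38.p14, read 5′ to 3′ on the strand of the gene. Capitals mark the letters TGGGAA, the core of the sequence that RBPJ is known to bind, or their reverse complement. The HES1 window is chr3:194135898-194136147, plus strand. The RBPJ window is chr4:26319496-26319745, plus strand, chosen from its 5 listed promoters as the only 1 with these letters. The MAML2 window is chr11:96343196-96343445, minus strand.
HES1: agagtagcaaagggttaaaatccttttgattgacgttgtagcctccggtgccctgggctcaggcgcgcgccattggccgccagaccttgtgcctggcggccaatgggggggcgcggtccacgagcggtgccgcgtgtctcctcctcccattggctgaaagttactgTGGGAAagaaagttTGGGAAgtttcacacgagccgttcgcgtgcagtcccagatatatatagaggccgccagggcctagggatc
RBPJ: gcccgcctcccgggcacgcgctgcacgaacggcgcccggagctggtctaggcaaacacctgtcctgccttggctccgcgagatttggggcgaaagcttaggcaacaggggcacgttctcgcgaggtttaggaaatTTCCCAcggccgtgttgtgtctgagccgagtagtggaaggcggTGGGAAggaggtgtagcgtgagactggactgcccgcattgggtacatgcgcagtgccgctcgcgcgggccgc
MAML2: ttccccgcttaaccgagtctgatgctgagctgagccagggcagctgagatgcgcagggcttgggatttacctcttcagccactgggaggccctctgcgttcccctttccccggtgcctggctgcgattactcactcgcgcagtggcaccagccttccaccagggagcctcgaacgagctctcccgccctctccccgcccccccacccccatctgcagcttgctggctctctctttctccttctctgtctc

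In the HES1 window TGGGAA occurred on the plus strand at 84 to 79 and at 70 to 65 bases before the start, and the first of these lay within the longer GTGGGAA. The RBPJ window held a minus-strand match at 115 to 110 bases and a plus-strand match at 72 to 67 bases before the start, both within GTGGGAA. No match lay in the MAML2 window, nor in the listed promoters of the other 7 genes. On either strand, TGGGAA was found in 20.8% of 35114 promoters of this length, and GTGGGAA in 5.43%. Counted by gene with any promoter, the shares were 24.6% and 6.69% of 27303 genes. Counted in the same way, 2 of the 10 genes (20%) held TGGGAA and the same 2 held GTGGGAA, and nothing is read from these shares. These are matches of letters only and are not measured binding sites.

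The deposited values are RMA intensities on a linear scale, with medians of 35.9 (B1), 35.6 (B2) and 34.8 (untreated). Log2 differences had an SD over genes of 0.33 for B1 against untreated, 0.60 for B2 against untreated, and 0.56 for B2 against B1, so the cisplatin arrays were not close repeats. With limma and Benjamini-Hochberg adjustment at 0.05, 0 of 19775 genes and 0 of 54613 probe sets were called, which is 0% of each, so no gene below passed a test. Counts at an unadjusted p are not given, because the untreated group is a single array. An exact permutation of 2 arrays against 1 cannot give a p below 0.333. Squamous markers were bright, with 7 of 10 markers analysed here and a summed intensity of 20391 in B1, 32706 in B2 and 19702 in untreated cells. Summed markers of fibroblasts (7 of 7 analysed), leukocytes (3 of 5) and endothelium (4 of 4) were 327, 85.2 and 97.0 in B1, 420, 80.5 and 92.8 in B2, and 297, 76.8 and 85.7 in untreated cells, with PTPRC, the pan-leukocyte marker, between 5.24 and 6.24. The log2 ratio of the 3′ to the 5′ control probe sets was 1.44 in B1, 1.31 in B2 and 1.36 in untreated cells for ACTB, and lay between 0.00 and 0.06 for GAPDH, so the arrays were alike in this measure of RNA integrity.

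The 10 genes did not move as a block. At the brightest probe set of each gene, HES1 was higher and MAML2 and RBPJ were lower in both cisplatin arrays, MAML1 was lower by less, and JAG1, JAG2 and NOTCH2 lay below untreated in B1 and above it in B2. Only MAML2 was at least 2-fold lower in both arrays, against 0.678% of all genes (1.51% in B1 and 4.5% in B2 taken alone), and 0 were at least 2-fold higher in both, against 0.142%. By sign alone, 5 of the 10 (NOTCH1, RBPJ and the 3 MAML genes) were lower in both arrays, where 27.4% of all genes were, and 2 (NOTCH3 and HES1) were higher in both, where 39.2% were. Because MAML2 was part of the choice, nothing is read from these shares. Both differences use the same untreated array. The median log2 difference of the 10 was -0.11 in B1 and 0.06 in B2, against 0.03 and 0.05 for all genes.

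**Figure D1:**
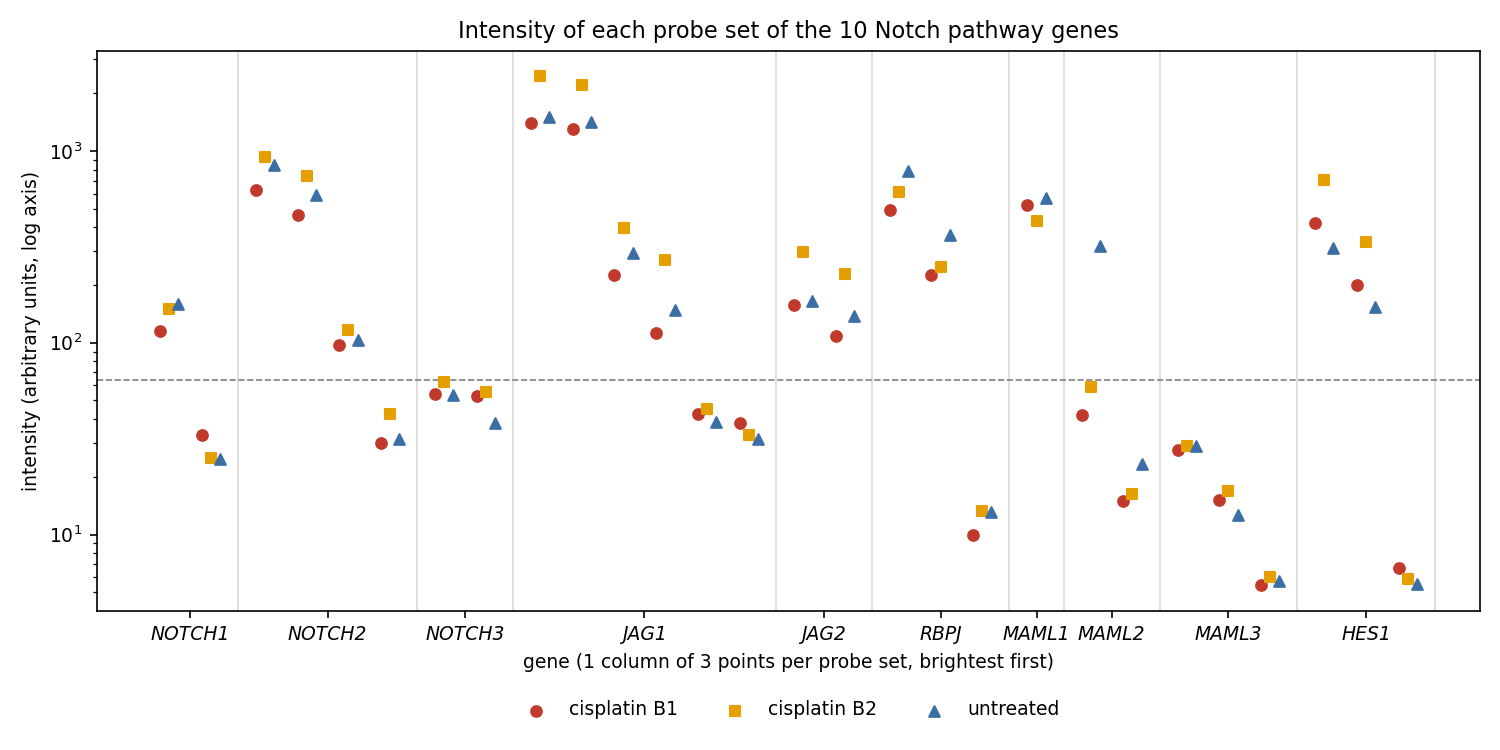
Intensity (arbitrary units, log axis) of the 28 probe sets of the 10 genes, with 1 point for each array: cisplatin B1 (circles), cisplatin B2 (squares) and untreated (triangles). The dashed line is a log2 value of 6. The brighter MAML2 probe set reads 41.8 and 58.9 under cisplatin, both below the dashed line, against 318 in untreated cells. The 2 bright HES1 probe sets lie above untreated in both cisplatin arrays.

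MAML2 encodes a Notch coactivator. Its brighter probe set had an intensity of 41.8 in B1 and 58.9 in B2, against 318 in untreated cells. Both cisplatin arrays lay far below the untreated one, by log2 differences of -2.93 and -2.43 (mean -2.68, SE 0.31), or 6.41-fold lower on average. The dimmer probe set read 15.03 and 16.3 in B1 and B2, against 23.4 in untreated cells. It pointed the same way but by less (log2 -0.64 and -0.52), and lay below a mean log2 value of 6, the level under which a probe set is called dim here because no detection calls were used. The brighter probe set passes that level only through the untreated array. Both its cisplatin values lay below a log2 value of 6, so the size of its fold difference rests on values in the dim range. With both probe sets averaged the log2 difference was -1.63. MAML2 was the lowest of all 19775 genes in B1, the 112th lowest in B2, the 10th lowest in the mean, and the lowest of the 134 genes that were at least 2-fold lower in both arrays.

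MAML1 and MAML3, the rest of the coactivator family, did not share this size. MAML1, measured by a single probe set, had 522 in B1 and 432 in B2, against 566 in untreated cells. Both cisplatin arrays were below untreated by a small margin (log2 -0.12 and -0.39, mean -0.25, SE 0.23), and the SE is close to the difference. MAML3 was dim on all 3 of its probe sets. The brightest of them read 27.6 and 28.8 in the cisplatin arrays and 28.9 in untreated cells, which differ by less than the SE (log2 mean -0.04, SE 0.19), and the mean of the 3 probe sets had the opposite sign (0.10). Without detection calls it cannot be said whether these cells express MAML3.

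RBPJ, the DNA-binding partner of cut Notch, was lower in both cisplatin arrays on both of its bright probe sets. The first had 492 in B1 and 614 in B2, against 789 in untreated cells. The second had 226 in B1 and 248 in B2, against 364 in untreated cells. In each case both cisplatin values lay under the untreated one, with log2 differences of -0.68 and -0.36 for the first (mean -0.52, SE 0.23) and of -0.69 and -0.55 for the second (mean -0.62, SE 0.19), these SEs being from the fit over probe sets. The remaining RBPJ probe set was dim (9.98, 13.3 and 13.05 in B1, B2 and untreated). Over all genes, RBPJ stood at percentile 3.8 of the B1 differences and 16.7 of the B2 differences.

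The receptors were nearer to untreated. NOTCH1, the main receptor of differentiating squamous epithelium, had 115 in B1 and 151 in B2, against 158 in untreated cells, so that only B1 was clearly below (log2 -0.46 and -0.07, mean -0.27, SE 0.27). The B2 difference turned to 0.04 with quantile normalization, and the dim second probe set was higher in B1 (log2 0.42 and 0.01). NOTCH2, a receptor with partial gene copies of the NOTCH2NL family, was measured by 4 probe sets. The brightest had 628 in B1 and 925 in B2, against 847 in untreated cells, and the next 461 and 738, against 591. On all 4 NOTCH2 probe sets B1 lay below untreated (log2 -0.43 to -0.07) and B2 above it (log2 0.13 to 0.43). The brightest is of a type marked for possible cross-hybridisation, and a probe set annotated to NOTCH2 together with its copies had similar differences (-0.42 and 0.10). The probe set annotated to the copy NOTCH2NLA alone was lower in both arrays (203 and 234, against 294, log2 -0.53 and -0.33), unlike NOTCH2 in B2. How much the copies add to the NOTCH2 signal was not tested. NOTCH3, a receptor also known as a Notch target, was dim, with 53.7 and 62.6 in B1 and B2 and 53.6 in untreated cells on its brighter probe set (log2 0.00 and 0.23) and 53.0 and 55.2, against 38.2, on the other (log2 0.47 and 0.53).

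The Jagged ligands separated the cisplatin arrays from each other. JAG1, a ligand widely expressed in epithelia, had 1393 in B1 and 2453 in B2, against 1503 in untreated cells, on its brightest probe set. B2 stood above untreated and B1 close to it (log2 -0.11 and 0.71, mean 0.30, SE 0.45), and the SE exceeds the mean difference. The 4 bright JAG1 probe sets were alike in this, with B1 differences of -0.40 to -0.11 and B2 differences of 0.44 to 0.86. JAG2 had 157 in B1 and 296 in B2, against 165 in untreated cells (log2 -0.07 and 0.84), and 108 and 228, against 137, on its other probe set (log2 -0.34 and 0.73). The small B1 difference of JAG2 turned to 0.05 with quantile normalization, while its B2 difference stayed positive (0.94).

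Across the 10 genes B2 read above B1 in 24 of 28 probe sets, and in 15 of the 16 that reach a mean log2 of 6, the exception being MAML1. Over all probe sets of that brightness B2 was above B1 in 51.9%. Several probe sets measure the same transcript, so these are not 28 separate observations. Squamous markers read higher in B2 as well, but by unequal amounts. The median log2 difference of the 7 analysed was 0.02 in B1 and 1.07 in B2. In B2 the differences ran from 0.06 (CDH1) to 3.10 (KRT14), with SFN and PERP at 0.52. KRT14, a basal keratin, had 276 and 2372, against 278 in untreated cells. KRT6A, KRT17 and TP63 were not analysed. The part of the squamous markers in the JAG1, JAG2 and HES1 values of B2 was not tested.

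**Figure D2:**
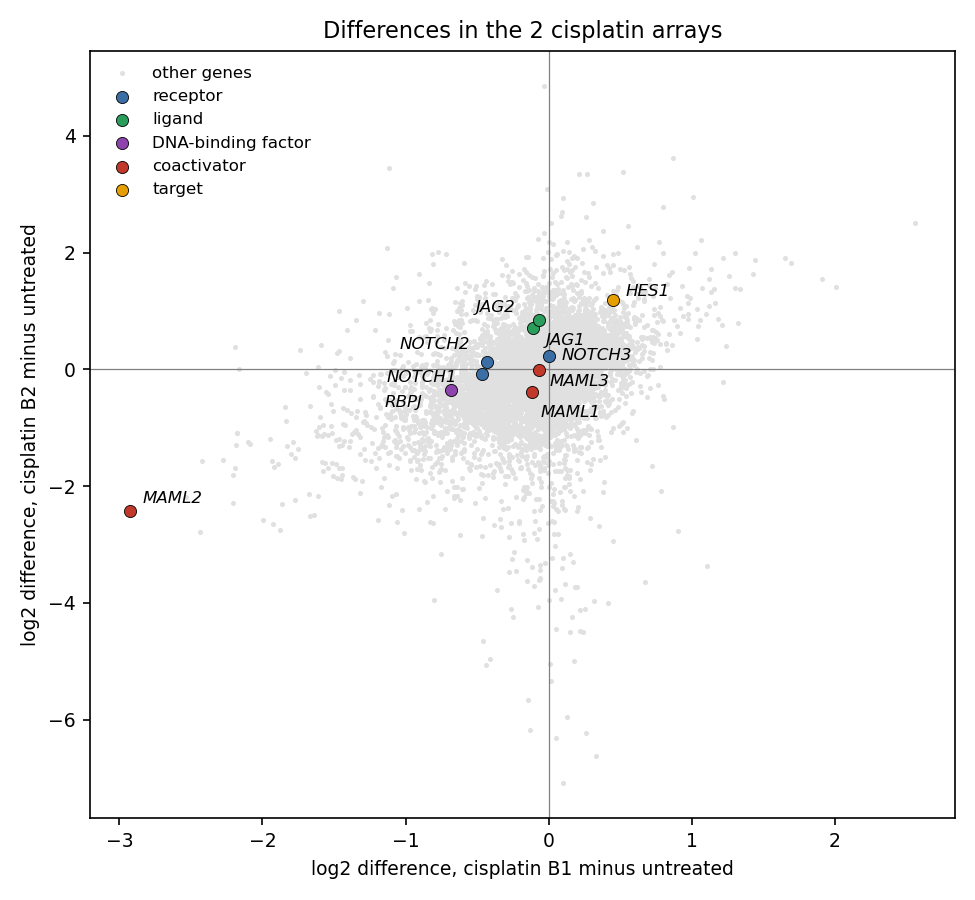
Log2 difference from untreated in cisplatin B1 (horizontal) and cisplatin B2 (vertical) for the 10 genes, coloured by role, over all genes that reach a mean log2 of 6 (grey), each at its brightest probe set. MAML2 is the point farthest left (-2.93, -2.43), HES1 lies to the upper right (0.45, 1.19), and JAG1 and JAG2 lie just left of the vertical axis and above 0.

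HES1, the repressor of basic helix-loop-helix genes that is the classical Notch target, was higher in both cisplatin arrays. Its brightest probe set had 423 in B1 and 708 in B2, against 311 in untreated cells, and the next had 200 and 336, against 153. On each of these probe sets both cisplatin arrays read above the single untreated array, and B2 stood farther from it than B1. By sign alone, 39.2% of all genes were higher in both arrays. The log2 differences were 0.45 and 1.19 on the first (mean 0.82, SE 0.40 in the fit over probe sets, or 1.76-fold) and 0.38 and 1.13 on the second (mean 0.76, SE 0.40). The last HES1 probe set was near the lowest intensities of the arrays (6.72, 5.84 and 5.54 in B1, B2 and untreated). HES1 passed 2-fold in B2, as did 2.99% of all genes, but not in B1, where 0.238% did.

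Other genes of the pathway were taken from lists sorted by role, 65 besides the 10, of which 62 were analysed here, with CIR1 under its newer symbol CIRSR. By limma 0 of the 62 passed, and 0 were at least 2-fold higher or lower in both arrays. By sign, 21 of 62 (33.9%) were higher in both and 16 (25.8%) lower in both, close to the 39.2% and 27.4% of all genes. Their median log2 differences were -0.03 in B1 and 0.16 in B2.

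Among 14 further target genes 6 were higher in both cisplatin arrays and 0 were lower in both, and the medians were 0.11 in B1 and 0.54 in B2. The share of higher genes, 42.9%, is near the 39.2% of all genes, and 27.4% of all genes were lower in both. Of the 14 targets 11 were bright, and of all genes that bright 29.8% were higher and 34.2% lower in both. The list was written with earlier results of these data known, so nothing is read from these shares. HEY1, a repressor of the same family as HES1, had 140 in B1 and 393 in B2, against 91.3 in untreated cells. Both values were above untreated, and B2 by far more (log2 0.62 and 2.11, SE of the mean 0.77), and its second probe set followed (log2 0.52 and 1.84). NRARP, a feedback inhibitor that binds the Notch complex, had 679 in B1 and 501 in B2, against 294 in untreated cells (log2 1.21 and 0.77, mean 0.99, SE 0.29), and was here higher in B1 than in B2. HES6, a family member known to counteract HES1, had 353 and 412, against 228 (log2 0.63 and 0.85). The directions of HES1, HEY1, NRARP and HES6 were kept with quantile normalization and with median centring. Of the 11 of all 15 listed targets, HES1 included, that have a promoter in the RefSeq table, 5 held GTGGGAA (HES1, HES4, HES5, HEY2 and HEYL), against 6.69% of 27303 genes with any promoter, and NRARP and HES6 did not. HES1 and some of its listed relatives, though not all, are classical RBPJ targets, so the list was not independent of this motif.

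The other ligands were set beside the Jagged genes. DLL1, a Delta-like ligand, had 72.6 in B1 and 171 in B2, against 109 in untreated cells, and DLL3, a relative that acts mainly inside the cell, had 43.2 and 146, against 51.7. Both were lower in B1 and higher in B2, as 17.3% of all genes were, and DLL4 was slightly higher in both (65.3 and 67.3, against 56.7). Nothing is read from that share for 3 genes. DLL1 and DLL3 were named after their values were seen. The mean of the 4 DLL3 probe sets was smaller, -0.02 in B1 and 0.57 in B2. The other receptor, NOTCH4, best known from endothelium, was dim (45.5 and 43.2, against 33.1).

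Among 12 analysed corepressors, which sit with RBPJ and keep its target genes silent, 6 were lower in both arrays and 2 higher in both. The list median was -0.21 (B1) and -0.06 (B2) on the log2 scale. All 12 were bright, and of all genes that bright 34.2% were lower and 29.8% higher in both, so with no test the list is not called lower. CTBP2 had 1613 in B1 and 1958 in B2, against 3181 in untreated cells (log2 -0.98 and -0.70), and 5 of its 6 probe sets were lower by a like amount in both arrays. SIN3A, the scaffold of a histone deacetylase complex, had 131 and 118, against 220 (log2 -0.74 and -0.89). TLE1, a Groucho-type corepressor that partners HES proteins, had 318 and 280, against 590 (log2 -0.89 and -1.07), but 2 dim probe sets of its 5 were higher, and the mean over the 5 was -0.40. TLE4, of the same family, was higher in both arrays (80.8 and 102, against 60.5). It was named after its values were seen.

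In the nuclear complex, CREBBP, an acetyltransferase recruited by MAML proteins, had 204 in B1 and 250 in B2, against 380 in untreated cells (log2 -0.90 and -0.60, SE of the mean 0.24). The mean over its 4 probe sets was -0.33. KAT2A, another acetyltransferase, was slightly higher (236 and 242, against 202), and the other 3 analysed genes of that list (EP300, KAT2B and SNW1) had a different sign in B1 and B2. Among 13 genes for cutting and glycosylating the receptor, 6 were higher and 3 lower in both arrays (46.2% and 23.1%). Of all genes 39.2% were higher and 27.4% lower in both, and of bright genes 29.8% and 34.2%. ADAM10, the protease of the first ligand-dependent cut, had 1050 and 972, against 1317 (log2 -0.33 and -0.44). The gamma-secretase subunits PSEN2 (112 and 123, against 91.7) and APH1B (108 and 168, against 91.3) were higher at their brightest probe sets. The second APH1B probe set (log2 0.10 and -0.13) and the other PSEN2 probe sets (-0.02 and 0.46, and, dim, -0.12 and 0.09) were not higher in both arrays. Of 14 genes for endocytosis and ubiquitin ligases, 4 were higher and 6 lower in both (28.6% and 42.9%). With no test, neither this list nor that of the 13 genes is called higher or lower. NEDD4, a ubiquitin ligase, had 233 and 200, against 362 (log2 -0.63 and -0.86). NUMB, an endocytic Notch inhibitor (9.66 and 8.16, against 13.4), and DTX1, a Deltex ligase (45.9 and 47.9, against 32.6), were dim.

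**Figure D3:**
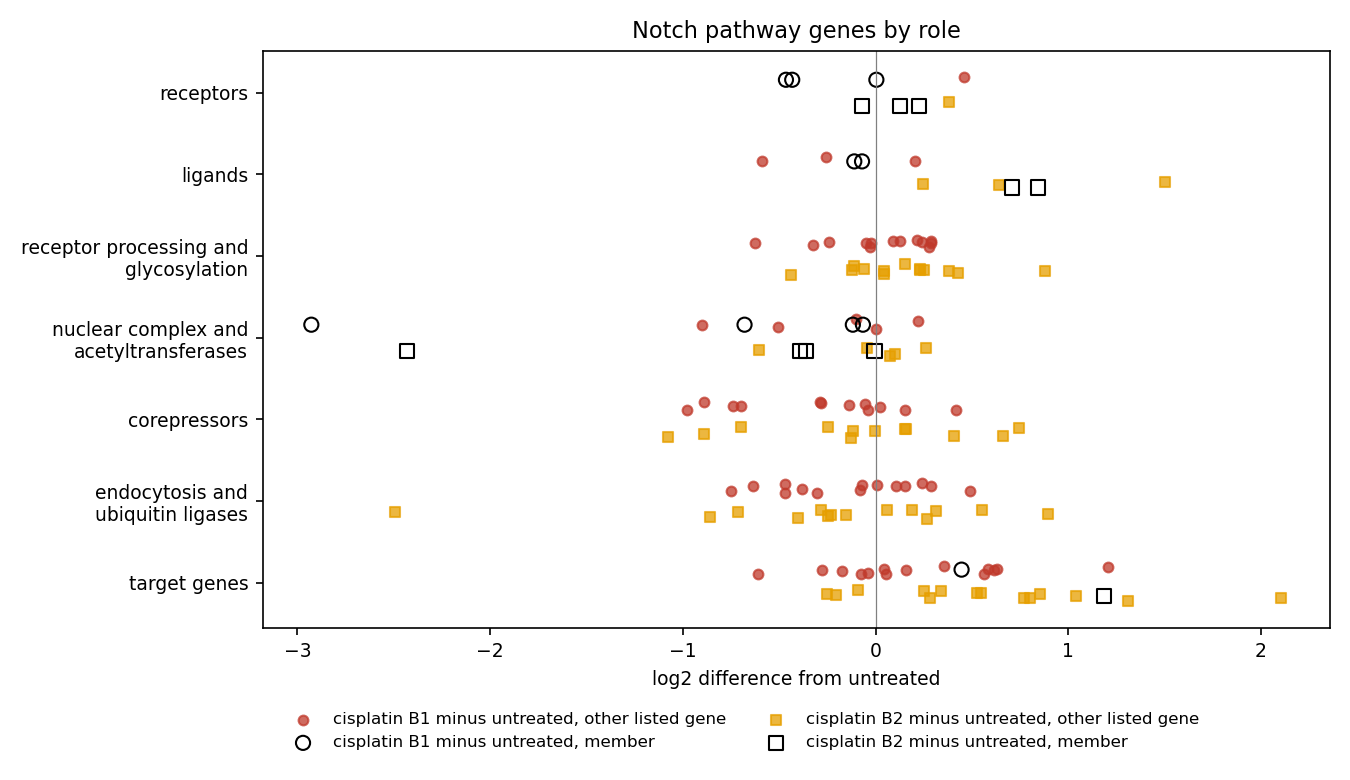
Log2 difference from untreated (horizontal) of the Notch pathway genes by role, for cisplatin B1 (circles) and cisplatin B2 (squares), with 1 point a gene at its brightest probe set. Open symbols are the 10 genes named at the start and filled ones the other 62. All 5 ligands lie right of 0 in B2. Of all genes, 39.2% were higher in both arrays and 17.3% lower in B1 and higher in B2, so nothing is read from this count. MAML2 is the point farthest left in B1, while in B2 the ubiquitin ligase DTX4 (-2.49) lies as far left as MAML2 (-2.43).

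The 10 genes span very different lengths of the genome, and their order in length ran close to their order in difference. HES1 covers 2.59 kb and was highest, JAG2 and JAG1 cover 27.8 and 36.3 kb, NOTCH3, MAML1 and NOTCH1 42.0, 44.5 and 51.6 kb, NOTCH2 158 kb, RBPJ 330 kb, MAML2 367 kb, and MAML3 437 kb. Over the 8 genes that reach a mean log2 of 6, Spearman's rho of span with the difference was -0.98 in B1 and -0.83 in B2. It was -0.96 and -0.75 without MAML2, which reaches that level only through the untreated array. Over all 10 it was -0.59 and -0.77. The genes share the same 3 arrays and the same untreated value, and a relation of length with difference was already known for all genes of these arrays, so this describes the members and is no separate support for it. The dim MAML3, longest of the 10, stood at -0.04.

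By the span of the whole annotated gene, RBPJ and MAML2 fall in the same class of length but differ in size of response. Among 272 genes of that brightness spanning at least 300 kb, the median log2 difference was -0.62 in B1 and -0.47 in B2, and 69.9% were lower in both arrays. RBPJ was 142nd from the lowest of these 272 by its mean difference, so it lay in the middle of the class. MAML2 was the lowest by its mean difference and in B1, and the 8th lowest in B2. MAML2 reaches a mean log2 of 6 only through the untreated array and was chosen as lowest, so nothing is read from its rank. The RBPJ span runs over chr4:26105449-26435131, and the RBPJ promoter window printed above lies inside it. A transcript from that start would be shorter, so the class of RBPJ depends on the start used. Which start these cells use was not tested. NOTCH2, at a mean of -0.15, lay between the median (-0.39) and the upper quartile (-0.11) of the class of 100 to 200 kb. HES1 (0.82) lay above the upper quartile of genes under 10 kb (0.29).

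**Figure D4:**
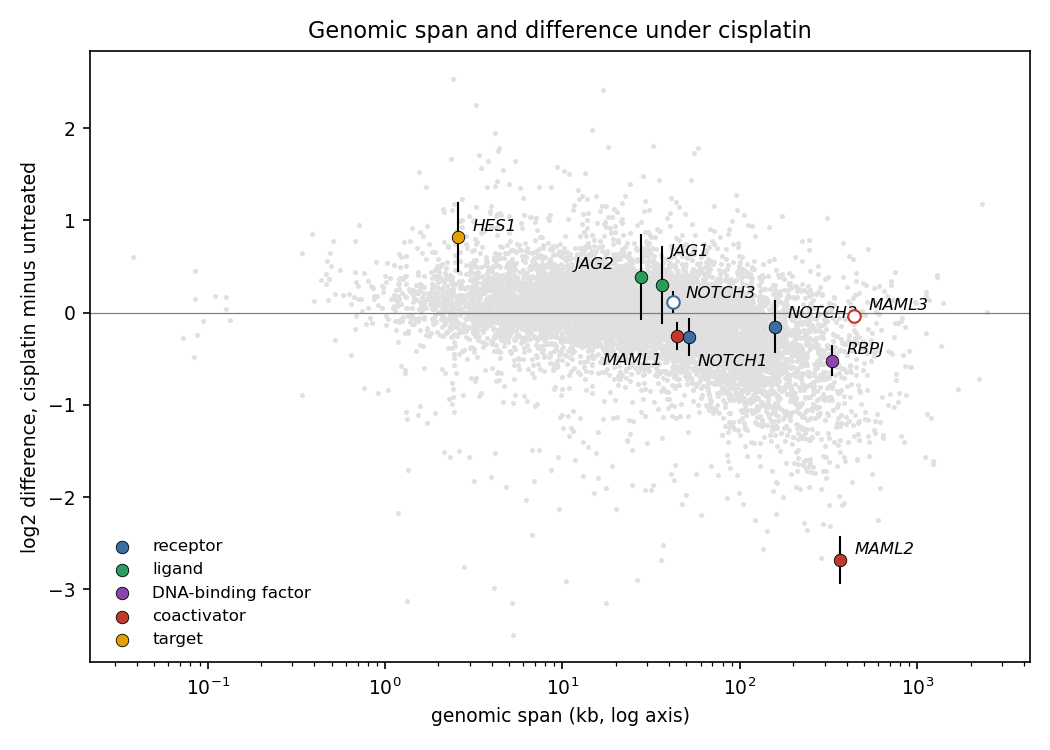
Mean log2 difference, cisplatin minus untreated (vertical), against genomic span (kb, log axis) for the 10 genes, coloured by role, over all genes that reach a mean log2 of 6 (grey). Vertical lines join the B1 and B2 differences, and open circles are the dim NOTCH3 and MAML3. HES1, at 2.59 kb, is the highest of the 10, and MAML2, at 367 kb, the lowest.

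By the distance between pairs of differences (B1 and B2 minus untreated), the 5 genes nearest to MAML2 were RAPGEF5, NHS, TMEM117, GPR39 and ZNRF3, at distances of 0.46 to 0.96 log2 units. RAPGEF5, the nearest, had 77.7 in B1 and 98.8 in B2, against 451 in untreated cells, though the mean log2 difference over its 4 probe sets was -0.95. These 5 genes span 174 to 603 kb. For HES1 the nearest were YPEL5, PLPBP and TUBA1A, at distances of 0.02 to 0.05, and these span 4.29 to 17.2 kb. The measure rests on 2 differences with a common untreated array, so it ranks likeness on these arrays only.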

How the data were processed

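The deposited table holds 1 intensity per probe set (54675) for each of 3 arrays, made by the authors with RMA, per the submitters' processing notes. The sources used here name no RMA version or chip definition. RMA ends on a log2 scale, whereas the deposited intensities are linear, so they were put on the log2 scale with no pseudocount. The 62 control probe sets stayed out of the tests. Symbols were updated by gene number to GRCh38.p14, and each gene was represented by its brightest probe set (highest mean of the 3 log2 values). The lmFit and eBayes steps of limma (version 3.58.1, R version 4.3.3) compared cisplatin with untreated on all genes and on all probe sets, with Benjamini-Hochberg adjustment at 0.05. Only the cisplatin pair informs the spread (1 residual degree of freedom), and the single untreated array is taken to vary as they do. The standard errors (SE) come from this fit and lean on a spread pooled over genes.

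The members and pathway lists were chosen with earlier results of these data known. Named beside the members were listed genes at least 2-fold apart from untreated in both arrays (none), up to 3 per list with the same sign in both arrays and the largest smaller difference, and, among genes that reach a mean log2 of 6, the 5 nearest to MAML2 and 3 nearest to HES1. No column was left unused. With 3 arrays in all, precision is limited by their number.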

Additional observations from a re-analysis of the deposited data

How the results depend on the processing

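No gene and no probe set was called by limma under any alternative run (dim features left out, an intensity trend with a robust prior, the mean of all probe sets, quantile normalization, median centring). With 1 cisplatin array left out no residual degrees of freedom remain, so there is no test. MAML2 remained the only member counted as lower under all 8 alternatives, which include thresholds of 1.5-fold and 3-fold and each cisplatin array alone. MAML2 was chosen as the lowest, so this is a description. No member was at least 2-fold higher except with B2 alone, where HES1 was, so leaving out a cisplatin array gave 0 to 1. Of all genes, 134 were at least 2-fold lower and 28 higher in both arrays. The lower genes numbered 38 with the mean of all probe sets, 524 at 1.5-fold, 24 at 3-fold, and 299 to 890 with a single cisplatin array. The higher genes numbered 189 at 1.5-fold, 4 at 3-fold, and 47 to 591 with a single cisplatin array. With the mean of all probe sets MAML2 was at -1.63, and NOTCH2 (0.01) and MAML3 (0.10) turned sign. With B1 alone JAG1 (-0.11) and JAG2 (-0.07) turned sign, and with B2 alone NOTCH2 (0.13) did. NOTCH3 turned to -0.04 in B1 with median centring, which lowered all differences by up to 0.04. The cause of these shifts was not tested. No paired analysis was possible because only the cisplatin arrays carry a replicate number. The lone untreated array and the lack of detection calls limit every value above.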

Other observations

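A few pathway genes outside the rule for named genes stood out after their values were seen. DTX4, a Deltex-type ubiquitin ligase, had 86.8 in B1 and 16.2 in B2, against 91.2 in untreated cells, so that its difference lay in B2 alone. LFNG, the Fringe enzyme that changes which ligands a Notch receptor answers to, had 127 in B1 and 255 in B2, against 196, and so lay on opposite sides of untreated in the cisplatin arrays. SOX9, a transcription factor listed among the targets, did the reverse, with 648 in B1 and 375 in B2, against 433. HEY2, a relative of HEY1, was close to untreated in B1 and higher in B2 (41.1 and 91.3, against 36.8).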
